A study of Mus musculus with 12 samples.

Results

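The small leucine-rich proteoglycans are secreted matrix proteins, and 10 of their genes, chosen by name, were followed: Dcn, Bgn, Aspn, Lum, Fmod, Prelp, Kera, Omd, Ogn and Podn. All 10 were found, each under 1 gene identifier, among 51707 genes in each of 12 libraries. The RNA came from mouse cells labelled MLO-Y4, an osteocyte-like line, kept on plates coated with rat tail collagen at 0.15 mg/mL. The deposited files carry the code MC3 in place of that name, which the labels do not explain, so the identity of the line rests on the labels. BIGH3, the protein of the human TGFBI gene, was given as recombinant protein. The 4 groups of 3 libraries were differentiated cells with BIGH3, differentiated control cells, undifferentiated cells with BIGH3 and undifferentiated control cells, where undifferentiated means that the label does not name differentiation. Differentiation meant α-MEM holding 10% serum with 50 µg/mL of added ascorbic acid, and with β-glycerophosphate at 4 mM, so an effect of the differentiated state and a direct effect of that medium cannot be told apart. For the dose of BIGH3, the time of exposure and what the controls received, the sources used here give nothing. The protocol also mentions HCQ and antibodies to BIGH3, which no library is labelled with. Whether replicate libraries stem from separate cultures is not stated, and p-values then measure only the spread between these libraries, which may be technical.

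These proteoglycans share a core of leucine-rich repeats that binds collagen, and they set the diameter and spacing of collagen fibrils. Decorin, biglycan and asporin form class I, of which decorin and biglycan carry chondroitin or dermatan sulfate chains. Lumican, fibromodulin, PRELP, keratocan and osteomodulin form class II, several of which carry keratan sulfate. Osteoglycin belongs to class III and podocan to class V. In bone, biglycan, decorin, osteomodulin, osteoglycin and asporin are known products of cells of the osteoblast lineage, and several members bind TGF-β or BMPs.

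Each library held 19014492 to 27612155 estimated reads. Of the osteocyte markers, Fbln7 and Fgf23 had 0 reads in all groups and Sost had reads only in differentiated controls, while Dmp1, Phex and Pdpn were present. The 8 osteocyte markers summed to 429 to 444 CPM in differentiated BIGH3 libraries, 353 to 376 in differentiated controls, 286 to 299 in undifferentiated BIGH3 libraries and 276 to 287 in undifferentiated controls. They did not move together: of 4 tested with BIGH3 in differentiated cells, Dmp1 and Pdpn rose, Ackr3 was not called, and Phex fell to 23.9 ± 2.6 CPM, against 83.8 ± 3.6 CPM in differentiated controls (SD, n = 3; edgeR, adjusted p = 3.04e-13). Liver transcripts, led by Afp, stood out in 3 libraries, 1 each of differentiated BIGH3, differentiated control and undifferentiated control, with Afp at 27.0, 24.9 and 63.3 CPM (a read count scaled to a common library size, after allowing for library make-up). The other 9 libraries held at most 11.2 CPM of Afp. Without these 3 libraries the same number of proteoglycan genes was called in each comparison as with them, namely 8 for BIGH3 in differentiated cells and 0 in undifferentiated cells.

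As the map of the loci shows, 8 of the 10 genes lie in 3 clusters, with coordinates on GRCm38 from GENCODE M21. Aspn (49544443 to 49567565), Omd (49582462 to 49592822) and Ogn (49608046 to 49624501) follow each other on chromosome 13, on the plus strand, with gaps of 14896 and 15223 bases. Dcn (97479609 to 97518143), Lum (97565128 to 97572703) and Kera (97606879 to 97613692) follow each other on chromosome 10, also on the plus strand. On chromosome 1, Prelp (133910304 to 133921414, minus strand) and Fmod (134037254 to 134048277, plus strand) are 115839 bases apart. Bgn lies on chromosome X (73483602 to 73495933) and Podn on chromosome 4 (108014791 to 108096445). No other protein-coding gene lies between neighbours of a cluster. All 3 chromosome 13 genes lie within the opposite-strand gene Cenpp, which had 764 reads over all libraries and shared 7 exon bases with Aspn and 0 with Omd and Ogn.

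RefSeq promoter sequences (GRCm38.p6) matched 8 of the 10 genes, all except Dcn and Lum. The 250 bases before the start are shown for the 3 chromosome 13 genes, which fell together with BIGH3, and for the chromosome 1 pair, which moved in opposite directions (values follow). They read 5′ to 3′ along the gene's strand, with matches to any searched motif in capitals. The starts are those of RefSeq, which can differ from those of GENCODE.
Aspn, chr13:49544193-49544442, plus strand: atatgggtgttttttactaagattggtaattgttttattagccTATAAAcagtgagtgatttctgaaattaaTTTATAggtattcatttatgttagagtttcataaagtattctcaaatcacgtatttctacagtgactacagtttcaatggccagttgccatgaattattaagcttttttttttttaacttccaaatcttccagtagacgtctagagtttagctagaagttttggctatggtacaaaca
Omd, chr13:49582212-49582461, plus strand: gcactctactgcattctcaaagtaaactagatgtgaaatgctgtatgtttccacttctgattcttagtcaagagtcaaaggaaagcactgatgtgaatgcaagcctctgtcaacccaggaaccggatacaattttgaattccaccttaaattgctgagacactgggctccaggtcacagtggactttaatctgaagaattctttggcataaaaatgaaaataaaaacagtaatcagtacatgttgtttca
Ogn, chr13:49607765-49608014, plus strand: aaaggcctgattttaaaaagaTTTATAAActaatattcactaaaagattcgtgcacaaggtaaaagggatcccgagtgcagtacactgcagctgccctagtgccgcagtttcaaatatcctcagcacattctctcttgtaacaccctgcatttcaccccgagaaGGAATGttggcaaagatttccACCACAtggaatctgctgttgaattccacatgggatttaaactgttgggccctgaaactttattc
Fmod, chr1:134037004-134037253, plus strand: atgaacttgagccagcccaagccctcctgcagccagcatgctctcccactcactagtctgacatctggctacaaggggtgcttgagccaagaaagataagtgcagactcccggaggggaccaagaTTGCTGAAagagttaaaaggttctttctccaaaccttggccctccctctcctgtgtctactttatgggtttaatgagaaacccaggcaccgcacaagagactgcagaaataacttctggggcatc
Prelp, chr1:133921402-133921651, minus strand: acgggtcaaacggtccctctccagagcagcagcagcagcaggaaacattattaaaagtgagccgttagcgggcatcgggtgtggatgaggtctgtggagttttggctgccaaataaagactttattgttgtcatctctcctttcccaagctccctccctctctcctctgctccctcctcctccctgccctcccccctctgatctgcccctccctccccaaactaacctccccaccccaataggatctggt

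The motifs searched, on both strands, were the TATA box (TATAAA), AP-1 (TGANTCA), C/EBP (TTGCNNAA), RUNX (TGTGGT), TEAD (GGAATG) and the NF-kB motif. Among 32817 RefSeq promoter windows of the same length, 12.4%, 6.75%, 9.57%, 14%, 12.6% and 7.25% held them, in that order. Aspn held 2 TATA box matches, the first of them beginning 207 bases before the start. Ogn held a TEAD match 86 to 81 bases before the start, a RUNX match at 65 to 60 on the other strand, and TATA box matches on both strands that overlap each other. Fmod held a C/EBP match 125 to 118 bases before the start, and the windows of Omd and Prelp held none of the 6 motifs. No motif was common to all 3 chromosome 13 genes. A match describes the letters alone.

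Adding BIGH3 to differentiated cells changed 8 of the 9 tested proteoglycan genes, 3 upward and 5 downward, and Kera was too low to test. Dcn rose 3.03-fold, Prelp 1.54-fold and Lum 1.24-fold, while Fmod fell 5.97-fold, Aspn 4.54-fold, Omd 3.35-fold, Ogn 2.24-fold and Podn 1.52-fold. Bgn had a fold change of 1.04 downward and was not called. Across all 14711 genes tested, 45.5% were called in this comparison, 22.6% higher and 22.9% lower, and 10.7% were called with a change of over 2-fold. The median log2 fold change of the 9 tested genes was -0.60, against -0.01 over all genes. A gene was called at an adjusted p below 0.05 (edgeR's quasi-likelihood test, Benjamini-Hochberg over all genes tested). In bulk RNA, a smaller number of cells that express a gene and less of its RNA per cell cannot be told apart.

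**Figure D1:**
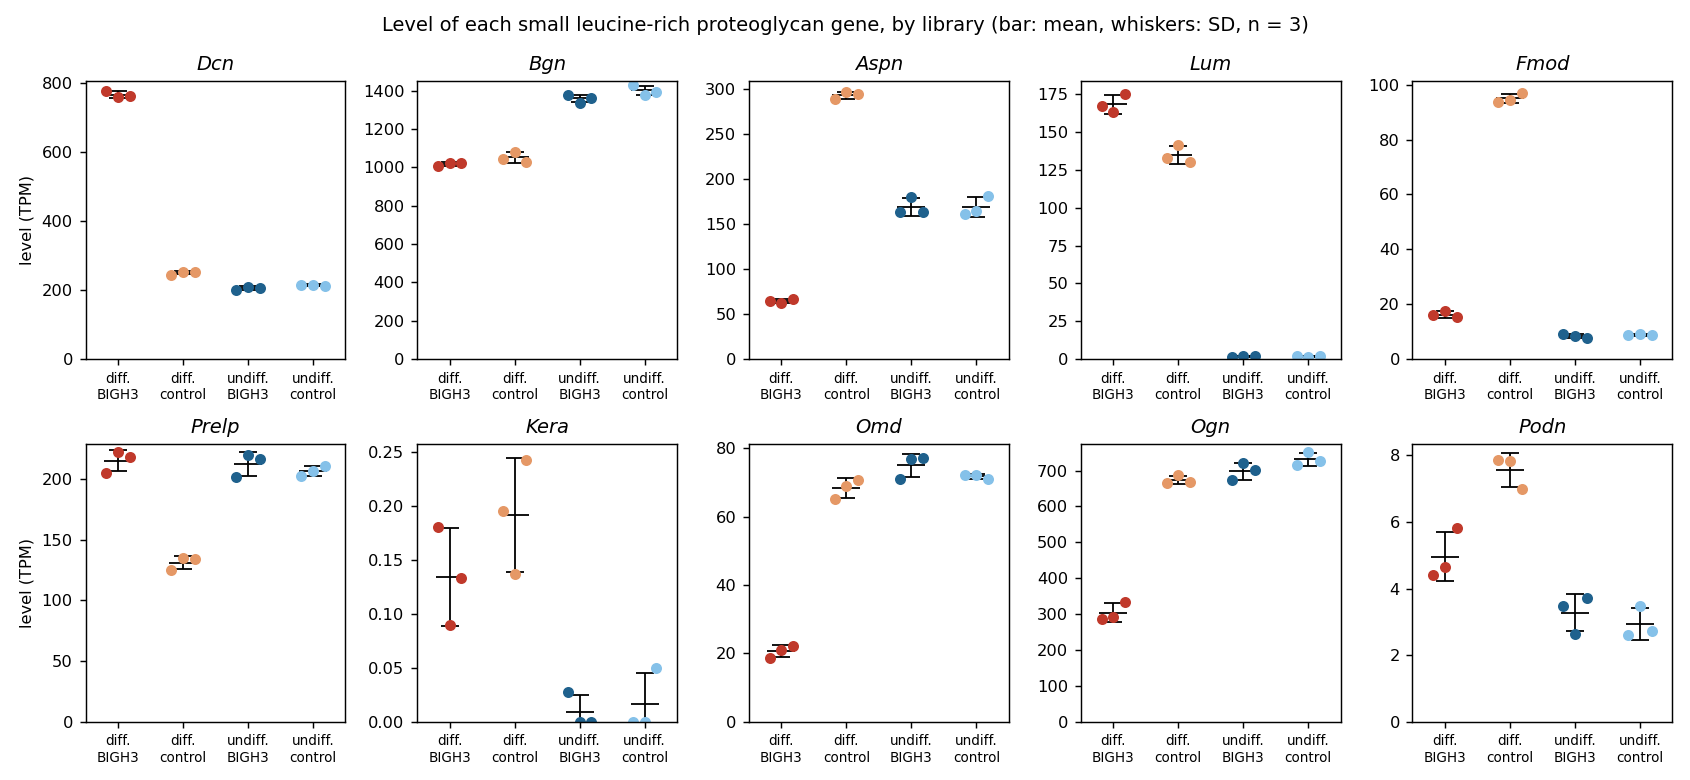
Level of each of the 10 genes in TPM (vertical axes, from 0), with a point per library, the mean as a bar and the SD as whiskers (n = 3), for the 4 groups along the horizontal axes. In differentiated cells Dcn averaged 766 TPM with BIGH3 and 249.5 TPM in controls, while Fmod averaged 16.2 TPM with BIGH3 and 95.1 TPM in controls.

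Among class I genes, Dcn, encoding the collagen- and TGF-β-binding decorin, stood at 1044, 1038 and 975 CPM in differentiated BIGH3 libraries, against 317, 332 and 360 CPM in differentiated controls. Every treated library lay well above every control, and the log2 fold change was 1.60 ± 0.05 (SE; adjusted p = 2.39e-15). Aspn, encoding asporin, whose aspartate-rich form binds collagen and TGF-β, stood at 113, 111 and 110 CPM with BIGH3, against 470, 504 and 544 CPM in controls. The groups did not overlap, and the log2 fold change was -2.18 ± 0.07 (adjusted p = 3.00e-15). Bgn, encoding biglycan, the closest relative of decorin and, when released, a ligand of Toll-like receptors, stood at 1960, 2036 and 1916 CPM with BIGH3, against 1983, 2071 and 2119 CPM in controls. These ranges overlapped, and its log2 fold change of -0.06 ± 0.04 missed the threshold (adjusted p = 0.234).

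Of the class II genes, Fmod had the largest fold change of the 9 tested genes with BIGH3 in differentiated cells. It encodes fibromodulin, a binder of collagen known from tendon and cartilage, and stood at 41.1, 44.7 and 37.5 CPM in treated libraries, against 233, 241 and 263 CPM in controls (log2 fold change -2.58 ± 0.06, adjusted p = 1.51e-17). Omd, encoding osteomodulin (osteoadherin), a proteoglycan of mineralised bone matrix, stood at 21.7, 24.8 and 24.4 CPM with BIGH3, against 71.4, 78 and 87.4 CPM in controls. All treated libraries lay below all controls, with a log2 fold change of -1.74 ± 0.08 (adjusted p = 7.14e-13).

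Prelp, encoding a class II protein with a basic, heparin-binding end, stood at 577, 606 and 555 CPM with BIGH3 in differentiated cells, against 357, 382 and 389 CPM in controls. The treated libraries all lay higher, with a log2 fold change of 0.62 ± 0.05 (adjusted p = 1.43e-09). An antisense gene, Gm15851, shares 350 exon bases with Prelp and held 210 reads over all libraries, against 130569 for Prelp. Lum, encoding lumican, best known from the cornea, stood at 323, 320 and 322 CPM with BIGH3, against 246, 266 and 268 CPM in controls. Its groups did not overlap either, with a smaller log2 fold change of 0.31 ± 0.06 (adjusted p = 0.000292). That call ended on the scale of log2(TPM + 0.1) (adjusted p = 0.0565, log2 fold change 0.32).

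Kera, encoding the corneal protein keratocan, had 7, 3 and 4 reads in differentiated BIGH3 libraries, against 8, 5 and 10 in differentiated controls. The ratio of rates was 0.705, with a 95% exact counting interval of 0.335 to 1.43, so no difference was detectable at this depth. In undifferentiated cells Kera had 1 read over the BIGH3 libraries and 2 over the controls. Between states the ratio was 15.5 with BIGH3 (interval 2.36 to 656) and 11.5 in controls (interval 2.84 to 101), and these intervals cover counting error only.

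Outside classes I and II, Ogn, encoding osteoglycin (mimecan), stood at 573, 582 and 628 CPM in differentiated BIGH3 libraries, against 1241, 1332 and 1415 CPM in differentiated controls. Treated libraries were all lower, with a log2 fold change of -1.16 ± 0.06 (adjusted p = 5.44e-12). Podn, encoding podocan, first described in the kidney, stood at 11.3, 12.1 and 13.99 CPM with BIGH3, against 18.9, 19.1 and 18.5 CPM in controls (log2 fold change -0.60 ± 0.12, adjusted p = 0.000244). Podn was a low gene whose groups still did not overlap. It lies across part of the locus of Scp2 on the same strand, with 0 shared exon bases.

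**Figure D2:**
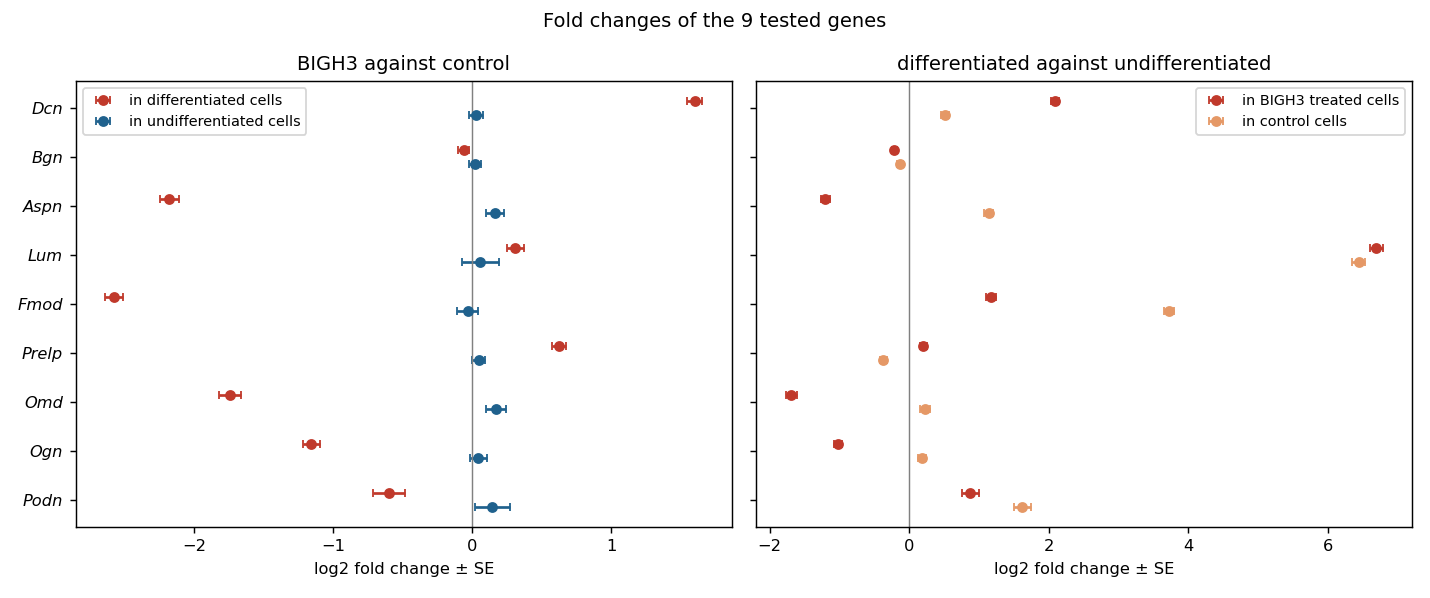
Log2 fold changes with standard errors (horizontal axes) of the 9 tested genes, for BIGH3 against control in both states on the left and for differentiated against undifferentiated cells in both treatments on the right. In differentiated cells with BIGH3 the values run from -2.58 for Fmod to 1.60 for Dcn, while in undifferentiated cells they run from -0.03 for Fmod to 0.17 for Omd.

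In undifferentiated cells none of the 9 tested genes was called for BIGH3 against control, where edgeR called 0.0204% of all genes (3 of 14711), 0.0068% higher and 0.0136% lower, with 0.0136% past 2-fold as well. At an unadjusted p below 0.05 there were 2 of the 9, Omd and Aspn, and DESeq2 called 0. The share of all genes at that unadjusted threshold was not counted, so whether 2 of 9 is unusual cannot be told. Omd had a log2 fold change of 0.17 ± 0.07 (unadjusted p = 0.0304) and Aspn of 0.16 ± 0.07 (unadjusted p = 0.0246), each with an adjusted p = 1.00. Dcn stood at 224, 251 and 242 CPM with BIGH3, against 237, 238 and 230 CPM in controls. Fmod stood at 19.4, 18.3 and 16.9 CPM with BIGH3, against 18.7, 18.8 and 18.3 CPM in controls. For both genes the groups overlapped, and the standard errors of the log2 fold changes were 0.05 for Dcn and 0.07 for Fmod, close to those in differentiated cells.

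The BIGH3 effect in differentiated cells differed from that in undifferentiated cells for 7 of the 9 tested genes, 2 more positive and 5 more negative. Over all genes 32.2% were called in this test of the difference, 16.2% more positive and 16% more negative, and 8.61% were called with a difference of over 2-fold. The split of those calls was 2378 more positive and 2352 more negative, and 2176 and 1115 on the log2(TPM + 0.1) scale. Dcn and Prelp differed upward, by 1.57 ± 0.08 (adjusted p = 2.00e-12) and 0.58 ± 0.07 (adjusted p = 1.46e-06) on the log2 scale. Fmod (-2.54 ± 0.10), Aspn (-2.34 ± 0.09), Omd (-1.91 ± 0.11), Ogn (-1.20 ± 0.09) and Podn (-0.75 ± 0.17) differed downward, with adjusted p-values from 6.70e-14 for Fmod to 0.00224 for Podn. For Lum the difference was 0.25 ± 0.15 (adjusted p = 0.201) and for Bgn -0.08 ± 0.06 (adjusted p = 0.326), and neither was called.

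Within the clusters, the 3 chromosome 13 genes fell together with BIGH3 in differentiated cells and the chromosome 1 pair, Prelp and Fmod, moved in opposite directions. On chromosome 10 Dcn and Lum both rose, by very unequal amounts. Other leucine-rich proteoglycan genes flank these clusters. Ecm2, next to Aspn on chromosome 13, stood at 6.87 ± 0.84 CPM with BIGH3, against 11.3 ± 1.0 CPM in controls (SD, n = 3), and fell by 0.72 ± 0.14 in log2 terms (adjusted p = 0.000226). Optc, encoding the eye protein opticin and lying next to Prelp, fell by 1.34 ± 0.28, to 1.81 CPM with BIGH3, against 4.58 CPM in controls (adjusted p = 0.000579). Epyc, encoding the cartilage protein epiphycan, lies beyond Kera on chromosome 10 and was singled out after its values were seen. It had a log2 fold change of 1.68 ± 0.59, at 1.07 CPM with BIGH3, against 0.332 CPM in controls (adjusted p = 0.0254). The Epyc call ended without any 1 of the differentiated BIGH3 libraries (adjusted p = 0.0961, 0.0548 and 0.0647), without differentiated control 1 (0.136) or 2 (0.109), and without the 3 libraries with liver transcripts (0.129). Its log2 fold change was then 1.55, 1.77 and 1.67, 1.34 or 1.48, and 1.49.

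**Figure D3:**
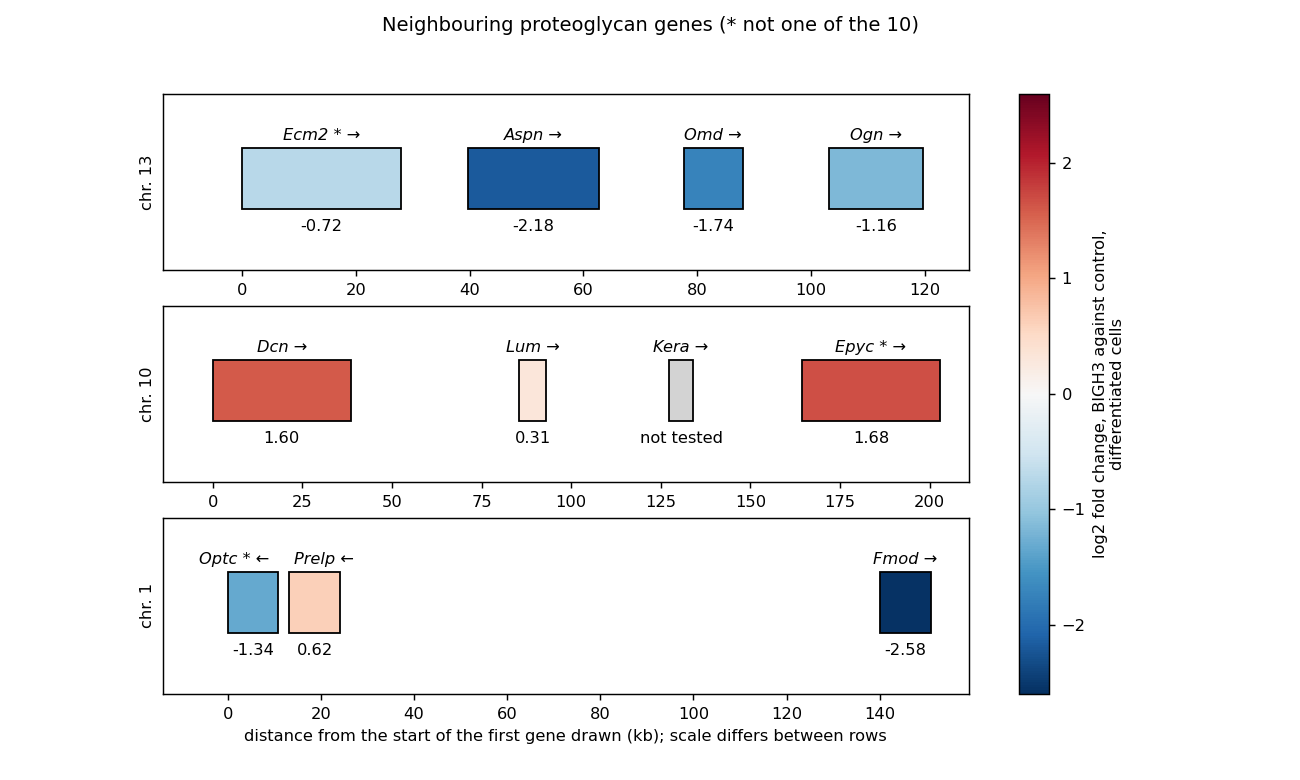
The 3 clusters of proteoglycan genes drawn to scale by distance from the start of the first gene drawn (kb; the scale differs between rows), with arrows for the strand and colour for the log2 fold change of BIGH3 against control in differentiated cells. All 4 genes drawn on chromosome 13 are below 0, from -2.18 for Aspn to -0.72 for Ecm2, while on chromosome 1 Prelp is at 0.62 between Optc at -1.34 and Fmod at -2.58.

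Differentiation itself changed all 9 tested genes in control cells, 7 upward and 2 downward, where 57.7% of all genes were called, 29.1% higher and 28.6% lower. Lum rose to 246, 266 and 268 CPM in differentiated controls, against 2.95, 2.62 and 3.32 CPM in undifferentiated controls, a log2 fold change of 6.45 ± 0.09 (adjusted p = 5.97e-22). Fmod rose 13.2-fold, to 245 ± 15 CPM in differentiated controls, against 18.6 ± 0.31 CPM in undifferentiated controls (SD, n = 3; adjusted p = 4.34e-20). Podn rose 3.08-fold, Aspn 2.20-fold and Dcn 1.43-fold. Prelp fell 1.29-fold, to 376 ± 17 CPM in differentiated controls, against 487 ± 9.9 CPM in undifferentiated controls (adjusted p = 1.68e-06). The calls of these genes held on the log2(TPM + 0.1) scale, but sizes moved. Dcn then had a log2 fold change of 0.22, against 0.52 in the main fit, Aspn 0.80 against 1.14 and Prelp -0.66 against -0.37.

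The remaining changes on differentiation of control cells were small, and those of Omd and Ogn turned on scaling. Omd and Ogn had log2 fold changes of 0.23 ± 0.07 (adjusted p = 0.0119) and 0.18 ± 0.06 (adjusted p = 0.0134), and Bgn had one of -0.13 ± 0.04 (adjusted p = 0.0101). On the log2(TPM + 0.1) scale Omd had -0.07 and Ogn -0.12, neither called, and with plain library totals they had 0.07 and 0.03, also not called. Bgn stayed lower and called on both, at -0.41 on the log2(TPM + 0.1) scale and -0.28 with library totals. Against those scales, the median of all genes stood at -0.31 and -0.16, and at -0.01 in the main fit. The split of all called genes was 4287 higher and 4204 lower in the main fit, 2930 and 5899 with library totals, and 1735 and 6987 on the log2(TPM + 0.1) scale. The Omd and Ogn calls also ended without differentiated control 3 (adjusted p = 0.112 and 0.0996) or undifferentiated control 3 (0.0570 and 0.0694), and the Bgn call ended without differentiated control 1 (0.0602).

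In BIGH3 treated cells, differentiation again changed all 9 tested genes, 5 upward and 4 downward, where 56.6% of all genes were called, 28.9% higher and 27.7% lower. The split of those calls was 4253 higher and 4076 lower, 3107 and 5304 with library totals, and 2100 and 5755 on the log2(TPM + 0.1) scale, where the median of all genes moved to -0.20. Lum rose by 6.70 ± 0.09 on the log2 scale, Dcn by 2.09 ± 0.06, Fmod by 1.18 ± 0.07 and Podn by 0.88 ± 0.12. Prelp rose by 0.21 ± 0.05 (adjusted p = 0.00130), a call that ended on the log2(TPM + 0.1) scale (log2 fold change 0.02, adjusted p = 0.791) and with library totals (0.09, adjusted p = 0.0875). Omd fell by 1.69 ± 0.08, Aspn by 1.20 ± 0.07, Ogn by 1.02 ± 0.06 and Bgn by 0.21 ± 0.04. The counts in controls and in BIGH3 treated cells share no libraries, but the differentiated controls also serve as the baseline for BIGH3 in differentiated cells. Side by side, Aspn was at 111 ± 1.2 CPM in differentiated BIGH3 cells, 506 ± 37 CPM in differentiated controls, 256 ± 26 CPM in undifferentiated BIGH3 cells and 229 ± 11 CPM in undifferentiated controls. Levels of Fmod in the same order were 41.1 ± 3.6, 245 ± 15, 18.2 ± 1.3 and 18.6 ± 0.31 CPM (SD, n = 3). Thus Aspn with BIGH3 lay below the undifferentiated libraries, and Fmod between those and the differentiated controls.

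TPM, which is divided by transcript length, allows levels to be set beside each other between genes. Bgn was the highest of the 10 in every group, at 1018 ± 10 TPM in differentiated BIGH3 cells, 1052 ± 28 TPM in differentiated controls, 1359 ± 20 TPM in undifferentiated BIGH3 cells and 1401 ± 26 TPM in undifferentiated controls (SD, n = 3). In differentiated BIGH3 cells Dcn came next at 766 ± 9.4 TPM, then Ogn at 304 ± 26, Prelp at 215 ± 8.9, Lum at 169 ± 6.2, Aspn at 64.7 ± 2.1, Omd at 20.6 ± 1.8, Fmod at 16.2 ± 1.2, Podn at 4.96 ± 0.74 and Kera at 0.134 ± 0.045 TPM. No neighbours in that order had overlapping libraries. In differentiated controls the order was Ogn at 673 ± 12 TPM, Aspn at 293 ± 4.1, Dcn at 249.5 ± 4.5, Lum at 135 ± 5.8, Prelp at 131 ± 5.5, Fmod at 95.1 ± 1.6, Omd at 68.4 ± 2.8, Podn at 7.57 ± 0.50 and Kera at 0.192 ± 0.053 TPM after Bgn. Only Lum and Prelp overlapped there.

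The undifferentiated groups had nearly the same order. With BIGH3, Ogn (698 ± 23 TPM) was followed by Prelp (212 ± 9.6) and Dcn (205 ± 5.4), whose libraries overlapped, and then by Aspn (169 ± 9.7), Omd (75 ± 3.3), Fmod (8.28 ± 0.73), Podn (3.28 ± 0.56) and Lum (1.86 ± 0.33 TPM). In undifferentiated controls Ogn (731 ± 18 TPM) was followed by Dcn (214 ± 1.6), Prelp (207 ± 4.1), Aspn (169 ± 11), Omd (71.8 ± 0.77), Fmod (8.76 ± 0.19), Podn (2.93 ± 0.48) and Lum (1.89 ± 0.26 TPM), with no overlap between neighbours.

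Summed over the 10 genes, TPM varied little between groups while its make-up changed. This holds on the TPM scale alone, and the sum was not taken in CPM. On differentiation of control cells the median log2 fold change of all genes was -0.31 on the log2(TPM + 0.1) scale, against -0.01 in the main fit. The sum was 2579 ± 40 TPM in differentiated BIGH3 cells, 2706 ± 53 TPM in differentiated controls, 2732 ± 29 TPM in undifferentiated BIGH3 cells and 2807 ± 3.8 TPM in undifferentiated controls (SD, n = 3). Dcn made up 29.7% ± 0.73 of that sum in differentiated BIGH3 cells, 9.22% ± 0.14 in differentiated controls, 7.502% ± 0.12 in undifferentiated BIGH3 cells and 7.64% ± 0.06 in undifferentiated controls. Ogn made up 11.8% ± 0.83, 24.9% ± 0.05, 25.5% ± 0.59 and 26.04% ± 0.68 in the same order of groups. Aspn made up 2.51% ± 0.05 in differentiated BIGH3 cells and 10.8% ± 0.13 in differentiated controls, and Bgn 39.5% ± 0.47 and 38.9% ± 0.47.

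**Figure D4:**
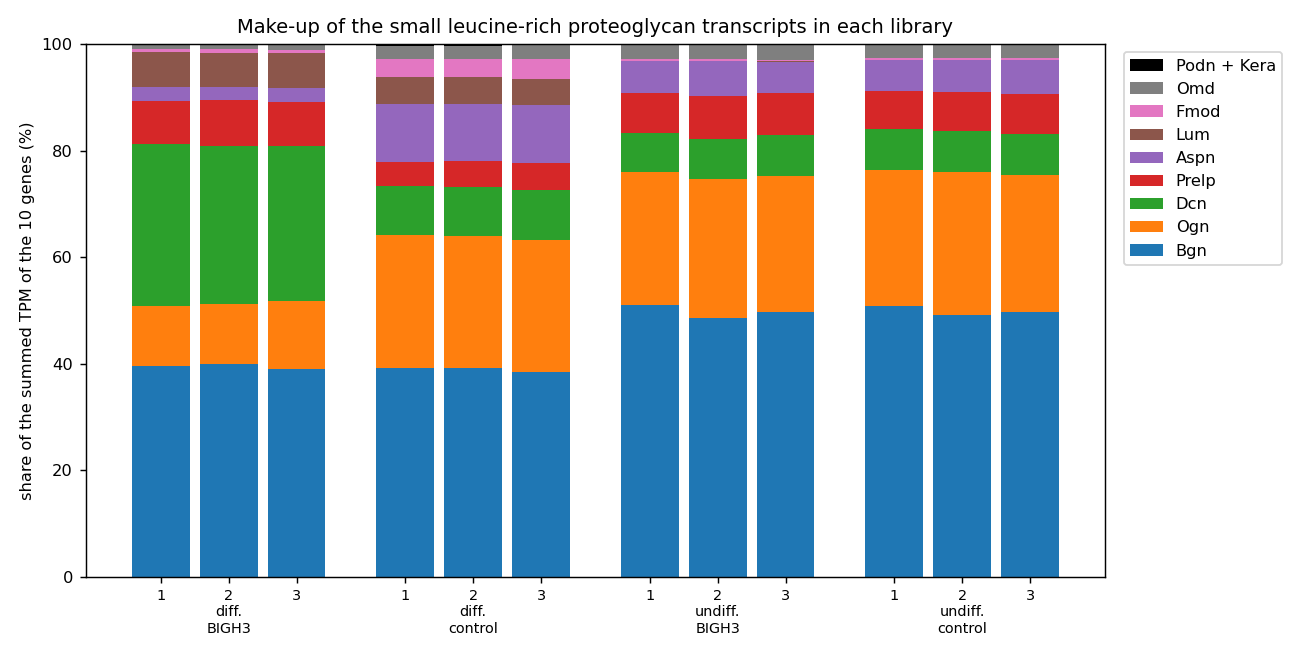
Share of the summed TPM of the 10 genes (vertical axis, percent) that each gene makes up in each of the 12 libraries, grouped along the horizontal axis. The Dcn share averages 29.7% in differentiated BIGH3 libraries and 9.22% in differentiated controls, while the Bgn share averages 39.5% and 38.9% in the same groups.

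Estimated reads of Dcn were divided between transcripts with different first exons. Dcn-201 and Dcn-202 share exons 2 to 8 in GENCODE M21, while exon 1 runs from 97479609 to 97479789 in Dcn-201 and from 97482367 to 97482547 in Dcn-202 (chromosome 10). Dcn-202 made up 8.47%, 8.22% and 8.59% of Dcn TPM in differentiated BIGH3 libraries and 7.89%, 10.5% and 8.66% in differentiated controls. In undifferentiated cells it made up 0.260%, 0.758% and 0.757% with BIGH3 and 0.745%, 0% and 0.214% in controls. The differentiated libraries of both treatments thus lay well above all undifferentiated ones, and within differentiated cells BIGH3 and control libraries overlapped. This split was noticed in the data and was not tested, and it rests on how the model divided reads that both transcripts share. Estimated reads of Dcn-202 were 1497 to 1940 in differentiated BIGH3 libraries, 604 to 739 in differentiated controls and at most 44.1 in undifferentiated libraries. Prelp also had a noncoding processed transcript, Prelp-202, at 12.8% ± 3.6 of Prelp TPM in differentiated BIGH3 cells and 6.95% ± 3.6 in differentiated controls (SD, n = 3), with overlapping libraries.

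**Figure D5:**
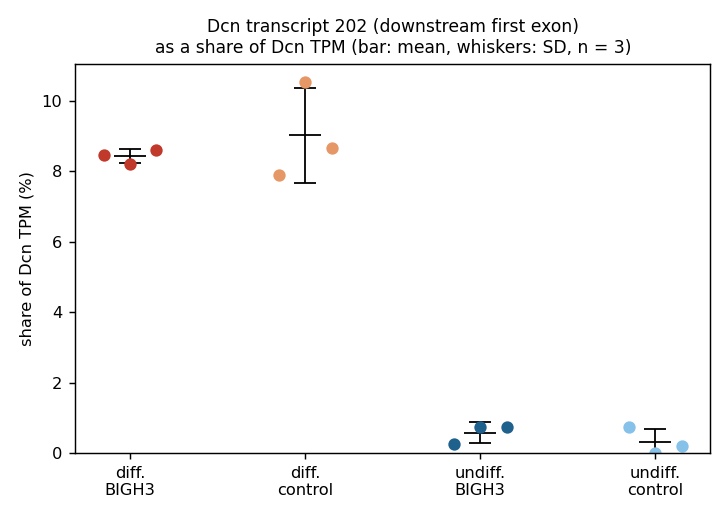
Share of Dcn TPM assigned to Dcn-202 (vertical axis, percent), with a point per library, the mean as a bar and the SD as whiskers (n = 3) for the 4 groups. Differentiated libraries lie from 7.89% to 10.5% and undifferentiated libraries from 0% to 0.758%.

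Among 8 listed leucine-rich proteoglycan genes outside the 10, 7 were tested, of which BIGH3 raised 3 and lowered 2 in differentiated cells. Over all genes 22.6% were called higher and 22.9% lower in that comparison. Besides Ecm2, Optc and Epyc, Podnl1, a relative of Podn, rose by 0.56 ± 0.16 on the log2 scale (adjusted p = 0.00797) and Nyx, encoding the retinal protein nyctalopin, by 1.31 ± 0.39 (adjusted p = 0.00868). Nyx was low, at means of 2.05 CPM in differentiated BIGH3 cells, 0.829 CPM in differentiated controls and 0.191 CPM in undifferentiated controls. The Podnl1 call ended with effective-length offsets (log2 fold change 0.47, adjusted p = 0.0511) and without the libraries with liver transcripts (0.51, adjusted p = 0.0714), at folds close to the main one. That of Nyx ended without differentiated BIGH3 1 (1.19, adjusted p = 0.0518) or differentiated control 1 (1.09, adjusted p = 0.0576). On differentiation of control cells 5 of the 7 rose and 0 fell, where 57.7% of all genes were called. Those that rose included Optc (2.69 ± 0.30), Nyx (2.09 ± 0.46), Ecm2 (0.75 ± 0.14) and Tsku, encoding tsukushi (0.42 ± 0.08), with the call of Nyx lost on the log2(TPM + 1) scale (0.18, adjusted p = 0.0705). For Tsku the direction was the opposite in TPM (-0.12, not called) and the call ended with effective-length offsets (0.19, adjusted p = 0.102).

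Genes of chondroitin and dermatan sulfate synthesis, which build the chains of decorin and biglycan, moved both up and down after BIGH3. In differentiated cells 6 of the 20 tested genes rose and 7 fell, where 22.6% of all genes were called higher and 22.9% lower, and the list's median log2 fold change was 0.05. Pxylp1, encoding a phosphatase that acts on the linkage xylose, rose by 1.34 ± 0.12 and Chpf2, of a chain-elongating enzyme, by 0.49 ± 0.05. B3gat3, of the enzyme that completes the linkage region, fell by 0.63 ± 0.09 and Fam20b, of the xylose kinase, by 0.30 ± 0.06. On differentiation of control cells 11 of the 20 rose and 2 fell, against 29.1% higher and 28.6% lower over all genes. Those that rose included the sulfotransferase genes Chst15 (1.44 ± 0.05) and Chst11 (0.72 ± 0.06). Of 7 tested genes of keratan sulfate synthesis 2 rose with BIGH3 and 0 fell, namely the sulfotransferase genes Chst1 (0.93 ± 0.18) and Chst2 (0.35 ± 0.07). On differentiation 3 of those 7 rose and 2 fell, with Chst1 at -1.40 ± 0.17. The 3 that rose, B4galt1, Chst2 and B3gnt2, all lost the call on the log2(TPM + 0.1) scale (0.02, 0.13 and 0.43, adjusted p = 0.778, 0.314 and 0.0858).

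Fibrillar collagens, the main ligands of these proteins, fell in 7 of 11 and rose in 1 with BIGH3 in differentiated cells, against 22.9% lower and 22.6% higher over all genes, with a median log2 fold change of -0.30. Col2a1, the main collagen of cartilage, fell by 2.91 ± 0.12, Col27a1 by 1.014 ± 0.08, Col5a2, whose product sets fibril size, by 0.53 ± 0.06 and Col11a2 by 0.83 ± 0.20 on the log2 scale. With BIGH3, Col2a1, Col27a1 and Col11a2 stood at 6.67, 13.9 and 1.78 CPM, against 49.7, 28.0 and 3.14 CPM in controls. Col1a2, Col1a1 and Col3a1, the highest of the 11 in CPM, fell by 0.24 ± 0.06, 0.30 ± 0.10 and 0.43 ± 0.11. Col1a2 stood at 6224 CPM with BIGH3 and 7355 CPM in controls. On differentiation of control cells 5 of the 11 rose and 4 fell, where 57.7% of all genes were called, with Col24a1 at 1.71 ± 0.08 and Col2a1 at -1.22 ± 0.09.

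Among proteases that process or cleave these proteins, 5 of 11 tested rose and 5 fell with BIGH3 in differentiated cells, where 45.5% of all genes were called. The collagenase gene Mmp13 rose by 1.84 ± 0.07, the gelatinase gene Mmp9 by 1.60 ± 0.08 and the aggrecanase gene Adamts4 by 1.08 ± 0.07, while the serine protease gene Htra1 fell by 0.89 ± 0.06 on the log2 scale. Of 12 tested receptors and growth factors that these proteins bind, 6 rose and 2 fell, against the same share. The Toll-like receptor genes Tlr2 and Tlr4, whose products bind released biglycan, stood at 210 ± 1.8 and 173 ± 11 CPM in differentiated BIGH3 cells, against 60.4 ± 1.1 and 76.1 ± 4.4 CPM in differentiated controls (SD, n = 3; adjusted p = 1.11e-17 for Tlr2 and 1.10e-12 for Tlr4). Their co-receptor gene Cd14 rose by 1.93 ± 0.13 and Bmp4 fell by 0.81 ± 0.05. On differentiation of control cells 8 of the 11 proteases rose and 3 fell, and 3 of the 12 receptors and growth factors rose and 4 fell, where 57.7% of all genes were called. In undifferentiated cells no gene of these 6 lists was called for BIGH3 by edgeR, with 1 other leucine-rich proteoglycan and 1 protease at an unadjusted p below 0.05. The share of all genes at that unadjusted threshold was not counted.

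Markers of related cell types moved in the same comparison. The summed level of 9 chondrocyte markers was 124 to 132 CPM in differentiated BIGH3 libraries and 214 to 224 CPM in differentiated controls. Most of it was Sox9, at a mean of 119.8 CPM with BIGH3 and 152.1 CPM in controls, a 1.27-fold fall. Matn1 had 0 reads with BIGH3 and a mean of only 1.22 CPM in controls. Of the 7 tested, 5 fell and 0 rose. The log2 fold changes of Comp (0.64) and Col10a1 (1.09) pointed upward but missed the threshold. The summed level of 4 tendon markers was 17.2 to 21.3 CPM with BIGH3 and 13.01 to 13.4 CPM in controls. Mkx made up most of it, at a mean of 18.55 CPM with BIGH3 and 12.92 CPM in controls. Scx was not called (0.283 CPM with BIGH3 and 0.310 CPM in controls). Thbs4 and Tnmd had 0 reads with BIGH3 and some reads in controls. Of 8 osteoblast markers 1 rose and 7 fell, where 22.6% of all genes were called higher and 22.9% lower. Among the 7, Runx2 and Col1a1 fell little, with log2 fold changes of -0.16 and -0.30, and Sp7 and Ibsp were low in both groups. The sum of the 8 was 11780 to 12950 CPM with BIGH3 and 5415 to 5591 CPM in controls. Spp1 alone stood at 10600 ± 460 CPM with BIGH3 and 3211 ± 98 CPM in controls, while Bglap2 fell to 7.46 ± 0.82 CPM with BIGH3, against 26.1 ± 2.0 CPM in controls. Adipocyte markers (2.35 to 2.78 CPM with BIGH3, 0.503 to 1.03 CPM in controls), muscle markers (5.26 to 9.57 and 19.4 to 23.9 CPM), endothelial markers (2.51 to 3.46 and 1.65 to 2.42 CPM) and epithelial markers (1.96 to 8.68 and 4.90 to 11.3 CPM) were low. Blood markers summed to 36.0 to 43.9 CPM with BIGH3 and 47.5 to 50.1 CPM in controls. Lyz2 made up most of it, at a mean of 39.3 CPM with BIGH3 and 47.8 CPM in controls. Ptprc (0.403 and 0.457 CPM) and Cd68 (0.629 and 0.489 CPM) were low and not called. The part of all these cell type markers in the changes of the proteoglycan genes was not tested.

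The genes most like each member over the 12 libraries, by Pearson correlation of log2 CPM, are a description of libraries that share groups. Omd and Ogn were most like each other (r = 0.993), followed by Mef2a for Omd and Samhd1 for Ogn. For Dcn the nearest were Ifnar2 (r = 0.998), Vcam1 and Pros1, and for Lum Gdpd1 (r = 0.998), Selenop and Postn. For Fmod they were Gas6 (r = 0.996), Adam12 and Tpst1, and for Aspn Ppp1r2 (r = 0.989), Tmod1 and Cytl1. For Prelp they were Ror1 (r = 0.989), Orc1 and Ube2t, for Podn Tns1 (r = 0.988), Adamtsl1 and Tent5a, and for Bgn Usp45 (r = 0.975), Idh3g and Ankef1.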

How the data were processed

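Tools listed in the submitters' processing notes are Salmon, StringTie, cutadapt and FastQC, and the build is mm10; their versions are not given in the sources used here. Per the file headers, the authors deposited, for each library and transcript, estimated counts of reads, which are expected counts with fractions, TPM scaled by the authors to a fixed sum, and transcript lengths in bases (other values: length and effective length). Transcripts were matched to GENCODE M21 (GRCm38) without the version suffix, 137063 of 147828 (92.7%). For 131373 the deposited version was 1 higher, and 98.5% of matched transcripts had the annotated length. Unmatched transcripts (1.28% to 3.67% of reads) were left out.

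Estimated counts were summed per gene and rounded, filtered with filterByExpr (14711 genes kept), and fitted after TMM scaling with edgeR 4.0.16 (R 4.3.3; quasi-likelihood, robust, 1 term per group, all 12 libraries, 8 residual degrees of freedom, two-sided). A standard error is the size of the log2 fold change divided by the root of F. The spread between replicate libraries beyond counting error, which edgeR names biological, had a coefficient of variation of 8.18% and may be technical. TPM were summed per gene. Library totals set the precision: counting intervals cover counting error alone. The fit was also run on simulated counts in which 200 of 14711 genes were changed, up and down alike. In the data 45.5% of genes were called for BIGH3 in differentiated cells, so the simulation does not test the scaling at such a share. Replicate libraries all differed from each other beyond sampling noise. Alternatives used DESeq2 1.42.0, limma 3.58.1 on log2 TPM, other scalings, filters, a block and left-out libraries.

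The members, gene lists, tests and alternatives were chosen with earlier results of these data known. All 10 members were named, with up to 4 genes per list by smallest adjusted p, and the 3 genes nearest each member (mean log2 CPM of at least 2, no predicted models). Epyc, the fibrillar collagens of highest CPM and single cell type markers were named besides. Strand of the libraries is not given in the sources used here.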

Additional observations from a re-analysis of the deposited data

Results flagged for a closer look

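The response to BIGH3 differed between differentiated and undifferentiated cells, by an interaction term in edgeR's fit, for 7 of the 9 tested genes. Differences between the states (log2 fold change in differentiated minus that in undifferentiated cells) were 1.57 for Dcn, 0.58 for Prelp, -0.75 for Podn, -1.20 for Ogn, -1.91 for Omd, -2.34 for Aspn and -2.54 for Fmod. Over all genes 32.2% met the same criterion. For each of the 7, all 3 differentiated BIGH3 libraries lay on the same side of all 3 differentiated controls. The same libraries entered the call, and the share of all genes separated in this way was not counted.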

How the results depend on the processing

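Of 981 fold changes of the 9 genes under 22 alternatives, 966 were kept, 11 lost the call and 4 turned direction. Kept means the same side of the threshold, and the same direction wherever the main fit or the alternative called the gene. A change of direction without a call in either was counted as kept. Lum with BIGH3 in undifferentiated cells is such a case, at 0.06 in the main fit and -0.03 in log2(TPM + 0.1). For BIGH3 in differentiated cells 197 of 198 were kept, the exception being Lum in log2(TPM + 0.1), and the number of genes called was 7 or 8 under every alternative. It was 0 in undifferentiated cells and 7 for the difference between states under each, 8 to 10 for differentiation with BIGH3 and 7 to 10 in controls, where 10 includes Kera without a low-count filter. The 4 reversals concern differentiation of control cells in TPM: Omd had -0.0722 and -0.0713 and Ogn -0.118 and -0.118 with pseudocounts of 0.1 and 1, where the median of all genes moved by the amounts in the text. The listed gene Tsku had -0.120 and -0.115 there. The cause was not tested. Of 1099 fold changes of the up to 4 genes per list with the smallest adjusted p, not all of which are named in the text, 1073 were kept, 20 lost the call, 4 gained it (all of B4galt4, a keratan sulfate synthesis gene) and 2 turned direction.

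The count of all genes called for BIGH3 in undifferentiated cells was 3, against 21 without a low-count filter, 4 with library totals, 8 by DESeq2, 1 with effective-length offsets, 0 and 1 in TPM, 0 with the compared groups alone, 1 without the libraries with liver transcripts and 0 to 3 with 1 library left out. Replicate numbers were shared by the groups, and same-numbered libraries had correlations of -0.224 to 0.35 between their deviations. Libraries of different numbers were not compared in this way, so these values cannot tell whether the numbers pair libraries. With the number as a replicate block 8, 0, 7, 9 and 9 of the 9 genes were called in the 5 comparisons, the same counts as without it. The difference between states needs all 4 groups, so it has no value from the compared groups alone. Kera was limited by depth.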
